A study of Mus musculus with 28 samples.

Results

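The genes described here are 36 genes of voltage-gated ion channels: 7 sodium channel alpha subunits, 9 calcium channel alpha1 subunits, 3 calcium channel alpha2delta subunits, 16 potassium channel subunits (1 of them the large-conductance potassium channel gene Kcnma1) and the pacemaker channel gene Hcn2. They were taken as a named list and all 36 were found among 21779 protein-coding genes of the mouse annotation. Of the 28 samples of the series, the 11 with a list of binding peaks were used, all from chromatin immunoprecipitation (ChIP) of sorted, formaldehyde-fixed mature olfactory sensory neurons. In control neurons, from OMP-IRES-GFP mice, antibodies to Ldb1 (3 libraries), CTCF (2 libraries) and Rad21 (2 libraries) were used, and GFP there marks cells that express Omp, a gene of mature olfactory neurons. Ldb1 was also mapped in Lhx2 KO neurons (2 libraries) of Lhx2fl/fl mice that carry OMP-IRES-Cre and the reporter Rosa-CAG-tdtom+/fl, where Cre driven from Omp deletes Lhx2 only once neurons mature, and in Olfr1507+ cells of M28-IRES-GFP mice (2 libraries), which express 1 chosen odorant receptor. The control mice carry no Cre and no tdTomato allele. The sources used here give neither the ages nor the number of animals behind a library of these groups. The p-values over libraries therefore measure a spread that may be technical.

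Most voltage-gated channels open when the membrane is depolarised, and pacemaker channels open when it is hyperpolarised. Sodium channels carry the upstroke of the action potential, potassium channels repolarise the cell, and calcium channels let in the calcium that triggers transmitter release in neurons and contraction in muscle. An olfactory neuron turns the current of its odour-gated channels into spikes with such channels, and the sodium channel of Scn9a is known for its part in transmitter release from these cells. CTCF binds DNA and holds cohesin, of which Rad21 is a subunit, at loop anchors. Ldb1 binds no DNA itself and sits on chromatin through DNA-binding partners, of which the LIM-homeodomain factor Lhx2 is one.

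The peak lists differ in length, from 542 peaks (second Lhx2 KO library) and 4290 (first) to 34210 (second CTCF library), and no read numbers come with them, so the depth behind a peak is unknown. The control Ldb1 lists held 24877, 28879 and 16067 peaks, the Rad21 lists 10487 and 28151, and the Olfr1507 lists 5095 and 21250. A region is a set of overlapping peaks from at least 2 libraries of a group, and a gene was given every region within 10 kb of its body. As a check of the cells, 8 of 8 marker genes of mature olfactory neurons (Omp, Gnal, Adcy3, Cnga2, Rtp1, Stoml3, Ano2 and Cngb1) had a control Ldb1 region, where 3.76 would be reached at the shares of their length classes. So did 3 of 10 marker genes of other cells (Ttn, Pecam1 and Krt5), against 4.07. Binding is not expression, and no RNA values were used.

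In control neurons, 29 of the 36 channel genes had an Ldb1 region, 32 a CTCF region and 21 a Rad21 region. Across all protein-coding genes the shares were 39.6%, 56.5% and 31.6%. Channel genes are long, with a median of 165 kb against 17.2 kb for all protein-coding genes, and long genes hold a region more often. The share of all genes with a control Ldb1 region was 28.4% under 30 kb, 53.7% from 30 to 100 kb, 71.0% from 100 to 200 kb, 83.9% from 200 to 400 kb and 86.9% above 400 kb. At the shares of their own length classes, 24.7 of the 36 genes would have had an Ldb1 region, 27.2 a CTCF region and 17.5 a Rad21 region. The observed counts were thus a few genes above those of like length for each of the 3 proteins. For CTCF the shares of all genes ran 48.1%, 68.2%, 79.0%, 85.4% and 84.4% from the shortest class to the longest, and the channel genes had 3 of 4, 7 of 8, 8 of 9, 5 of 5 and 9 of 10. For Rad21 they ran 25.4%, 38.7%, 49.3%, 59.9% and 59.7%, with 1 of 4, 5 of 8, 5 of 9, 5 of 5 and 5 of 10 channel genes. These differences were not tested, because the genes are not replicates. By single library, 32 and 34 channel genes had a CTCF peak (58.8% and 66.6% of all genes) and 22 and 31 a Rad21 peak (32.7% and 60.4%).

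**Figure D1:**
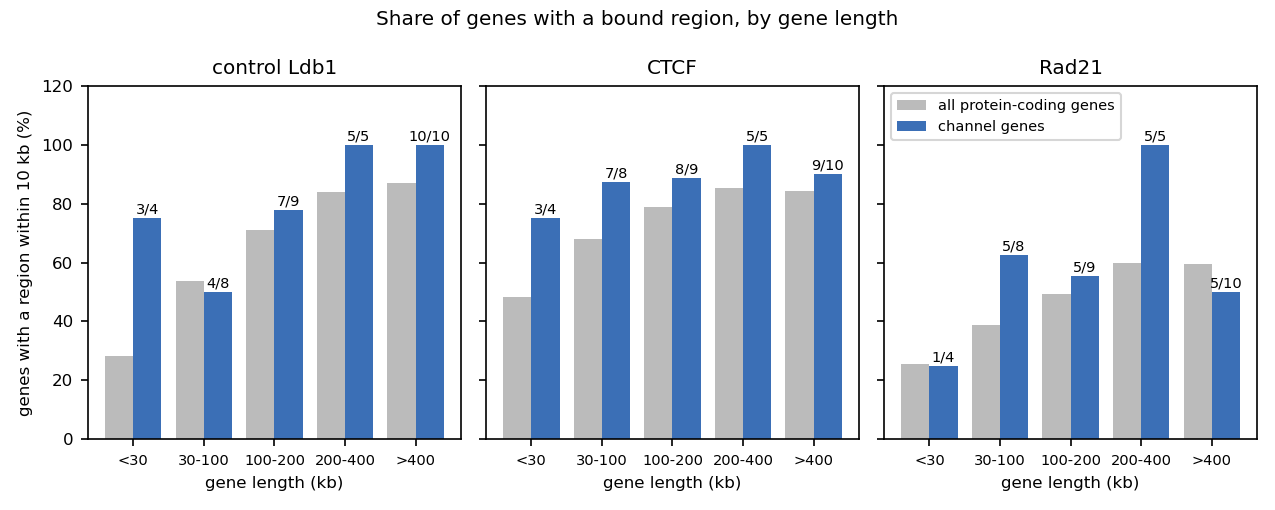
Percentage of genes with a region within 10 kb (y axis) in 5 classes of gene length (x axis, kb), for control Ldb1, CTCF and Rad21. Grey bars are all protein-coding genes, and blue bars are the channel genes, with their number above each bar; every channel gene above 200 kb had a control Ldb1 region (5 of 5 and 10 of 10), while 4 of 8 from 30 to 100 kb had one.

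Regions were also counted per length. The windows of the 36 genes do not overlap each other and cover 9518 kb. They held 127 control Ldb1 regions, or 1.33 per 100 kb, against 1.29 per 100 kb over the windows of all protein-coding genes and 1.18 at the densities of genes of like length. CTCF regions numbered 103 (1.08 per 100 kb) against 1.42 over all genes and 0.859 at like length. Rad21 regions numbered 37 (0.389 per 100 kb) against 0.564 and 0.341. Long genes thus carried CTCF and Rad21 regions less densely than all genes did, and channel genes lay slightly above other genes of their length.

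The 127 Ldb1 regions were spread unevenly over the genes. Kcnma1, Cacna2d1, Cacna1d, Scn9a and Cacna1b together held 67 of them. The remaining 24 genes with a region had 1 to 7 each. Across the 36 genes the number of Ldb1 regions rose with gene length with a Spearman coefficient of 0.59, against 0.31 for CTCF and 0.19 for Rad21 (descriptions over genes that share the same libraries). Density of Ldb1 regions and density of CTCF regions were almost unrelated across the genes (Spearman coefficient 0.080).

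**Figure D2:**
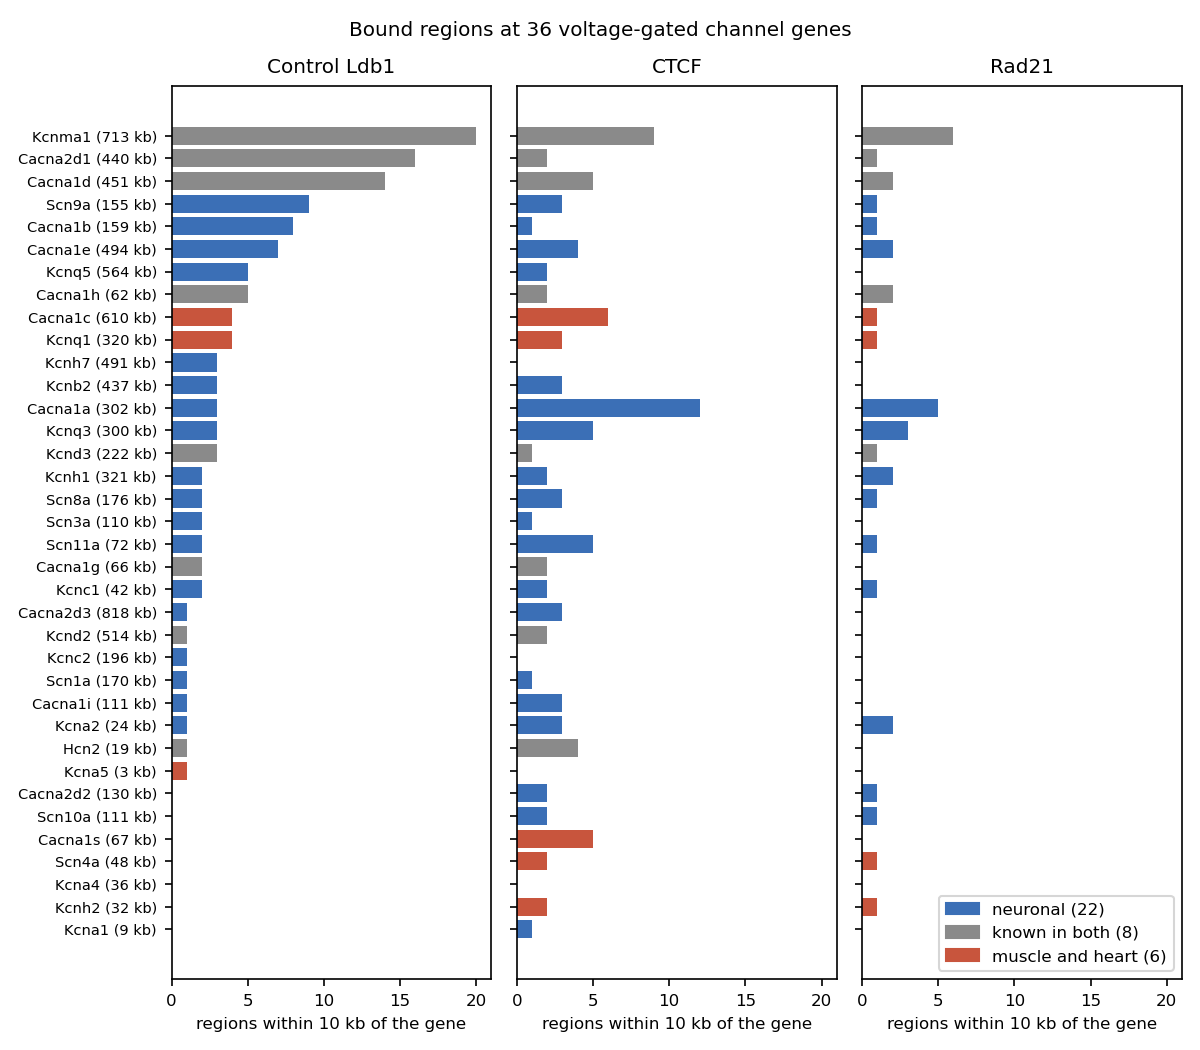
Number of regions within 10 kb of each channel gene (x axis) for control Ldb1, CTCF and Rad21, with genes on the y axis ordered by Ldb1 regions and their length in kb in parentheses. Colours give the class of the gene; Kcnma1 has the most Ldb1 regions (20), Cacna1a the most CTCF regions (12), and 7 genes at the bottom have no Ldb1 region.

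Peaks were ranked within their own list by the deposited score, as a percentile from 0 (weakest) to 100, since scores have no common scale between libraries. Peaks at channel genes had a median percentile of 55.3, 54.3 and 54.6 in the 3 control Ldb1 lists, against 47.8, 48.4 and 48.3 for peaks at all protein-coding genes. In the CTCF lists the medians were 53.8 and 52.5, against 50.4 and 49.3, and in the Rad21 lists 60.4 and 51.9, against 49.9 and 48.95. The Olfr1507 medians were 51.1 and 50.8, against 48.6 in each. The gap was widest in the Lhx2 KO lists, at 74.5 against 47.6 and 73.7 against 41.4, over only 18 and 2 peaks at channel genes. A region was ranked by the mean percentile of its peaks over the libraries of its group, an absent peak counting as 0. Of the 127 Ldb1 regions, 15 were among the strongest 10% of all 22789 control Ldb1 regions (10.0% by construction), and 87 had a peak in all 3 libraries (65.2% of all regions). Channel genes therefore held Ldb1 regions of about average strength with a few very strong ones.

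Among sodium channel genes, Scn9a stood first. This gene, on chromosome 2 from 66480080 to 66635114, had 9, 10 and 7 control Ldb1 peaks in the 3 libraries, and only 3.97% of genes of 100 to 200 kb had as many as its 9 regions. Its strongest region (chr2:66511529-66511885, inside the gene, 123 kb past the annotated start) ranked 140 of 22789, at percentile 99.4. That region had a peak in both Olfr1507 libraries, in the second Rad21 library and in neither Lhx2 KO library. All 9 regions lay inside the gene body, so the neighbouring Scn1a does not share them.

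Scn1a, which encodes a sodium channel known from inhibitory neurons, had 1 Ldb1 region, near its far end (chr2:66292233-66292570, percentile 94.9). Each of the 3 control lists, both Olfr1507 lists and the first Lhx2 KO list had exactly 1 peak at Scn1a. Scn8a, whose channel sits at the axon initial segment, had 3, 2 and 2 control peaks in 2 regions, the stronger at percentile 84.8 and 8.2 kb past the nearest annotated start. Scn3a had 2 regions, the stronger of which (percentile 82.0) lay outside the gene body in the 10 kb flank. Scn11a, a channel of pain-sensing neurons, had 2, 2 and 0 control peaks, none above percentile 29.3. The genes Scn10a and Scn4a had no Ldb1 region. The order within the family ran from Scn9a, with a top percentile of at least 99.1 in each control list, through Scn1a (93.3 to 95.9) to Scn8a (77.9 to 90.1) and Scn3a (78.4 to 87.1). Scn8a and Scn3a overlapped in range.

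Calcium channel alpha1 genes held 5 of the 15 regions among the strongest 10%, each in another gene, and sodium channel genes held 3. All the others lay in the potassium channel genes Kcnma1, Kcnh1, Kcna2 and Kcnq1. Of the 9 alpha1 genes, all longer than 30 kb, 8 had an Ldb1 region, where 53.7% to 86.9% of all genes in their length classes had one. They held 44 regions in all, or 1.76 per 100 kb, against 1.29 over the windows of all protein-coding genes. Cacna1h, a T-type channel gene on chromosome 17, had 5, 5 and 4 control peaks over only 62.05 kb, and 3.56% of genes of 30 to 100 kb had as many regions. Its strongest region (chr17:25418992-25419347, percentile 97.8) had a peak in all 9 Ldb1 and Rad21 lists and in no CTCF list. Cacna1b, the N-type channel gene of presynaptic terminals, had 8, 9 and 3 control peaks, and 5.4% of genes of 100 to 200 kb had as many as its 8 regions. Its strongest region (chr2:24752554-24752891, percentile 96.8) lay 10.4 kb past the start and had no CTCF or Rad21 peak. A second region of Cacna1b, 7.6 kb past the start (chr2:24755389-24755754, percentile 83.6), had a peak in both CTCF and both Rad21 libraries.

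Cacna1e, the R-type channel gene, had 8, 7 and 5 control peaks, with its strongest region at percentile 96.8 (chr1:154607342-154607685). Cacna1g, another T-type gene, had 2, 3 and 1 peaks, the strongest region at percentile 95.5 (chr11:94438773-94439110). Cacna1d, an L-type gene used in neurons, endocrine cells and the sinus node, had 14, 17 and 8 peaks over 451 kb. Cacna1a, the P/Q-type gene, had 4, 4 and 3 peaks, all 3 of its regions in all control libraries. Cacna1i, also a T-type gene, had 1, 1 and 0 peaks, at percentiles 9.7 and 23.5. The T-type genes thus ranged from Cacna1h, at percentile 97.5 to 98.2 in each control list, to Cacna1i, which lacked a peak in the third library. Among the alpha2delta subunits, which bring calcium channels to the membrane, Cacna2d1 had 19, 22 and 15 peaks over 440 kb, Cacna2d3 had 1, 1 and 0 over 818 kb, and Cacna2d2 had 0, 1 and 0.

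Potassium channel genes were led by Kcnh1, which encodes a channel of the ether-a-go-go family. Its 2 regions lay next to each other, 249 kb past the start (chr1:192439164-192439526, percentile 98.1, and chr1:192441724-192442067, percentile 91.5). The highest peak at Kcnh1 was at percentile 97.9, 98.2 and 98.3 in the control lists and at 99.3 and 99.9 in the Olfr1507 lists. Only 2 regions over 321 kb is a usual number, as 66.0% of genes of 200 to 400 kb had at least as many. Kcnma1, the gene of the large-conductance channel opened by calcium and voltage together, had the most regions of all 36 genes: 21, 24 and 19 control peaks over 713 kb, with a strongest region at percentile 93.2, 18.1 kb past the start (chr14:23985948-23986300). Of genes above 400 kb, 9.7% had at least as many as its 20 regions.

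Other potassium channel genes held single strong sites or weak ones. Kcna2, a channel gene of axons, had 2, 2 and 1 control peaks and 1 region at percentile 92.6 (chr3:107113301-107113659). Kcnc1, a gene of fast-spiking neurons, had 2 peaks in each control list, the stronger region at percentile 74.5. Kcnq5 had 6, 5 and 3 peaks, and Kcnq3, with which it forms the slow M current, had 3, 5 and 3. The Kv4 genes of the A-type current lay low: Kcnd3 had 3, 4 and 2 peaks with a strongest region at percentile 40.4, and Kcnd2 had 1, 1 and 0 over 514 kb, at percentiles of 3.3 and 2.6. Kcnb2 had 4, 6 and 2 peaks, Kcnh7 4, 6 and 1, and Kcnc2 1, 1 and 0. All 3 regions of Kcnb2 also lay inside the overlapping gene Gm51415, so they cannot be given to 1 of the genes. The same holds for 1 region of Cacna1c in Dcp1b and 1 of Cacna1d in Dcp1a.

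**Figure D3:**
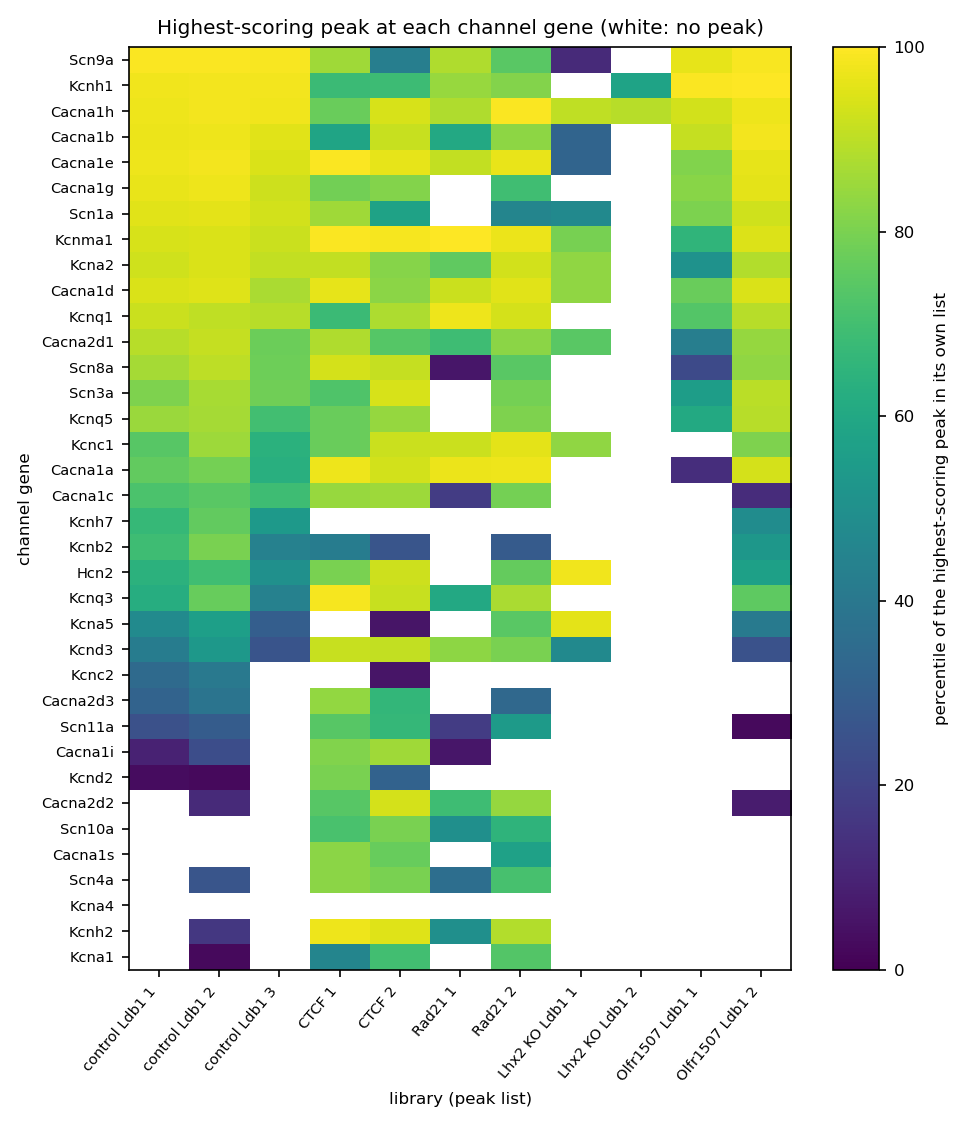
Percentile, within its own list, of the highest-scoring peak within 10 kb of each channel gene (rows) in each of the 11 libraries (columns), with white for no peak. Genes are ordered by their strongest control Ldb1 region; the control Ldb1 and Olfr1507 columns share the same leading rows, Hcn2 (98.0) and Kcna5 (95.9) lead the first Lhx2 KO column, and the row of Kcna4 is empty.

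The 7 genes without a control Ldb1 region were Scn10a, Scn4a, Cacna1s, Cacna2d2, Kcna1, Kcna4 and Kcnh2. Of these, Kcna4, a gene of the fast inactivating A-type current, had no peak in any of the 11 lists. Kcna1, Kcnh2, Scn4a and Cacna2d2 had 1 or 2 control peaks, all in the second library, at percentiles up to 26.5. Cacna2d2 also had 1 peak in the second Olfr1507 library, at percentile 7.75, while Scn10a and Cacna1s had none in any Ldb1 list. A further 5 genes, Kcnc2, Cacna2d3, Scn11a, Cacna1i and Kcnd2, had regions in the first 2 control libraries but no peak in the third, the shortest list. With peaks needed in all 3 control libraries the count was therefore 24. The shares of all genes given above are for regions of at least 2 libraries and do not apply to this count. Genes with and without an Ldb1 region did not separate by CTCF: 6 of the 7 without Ldb1 had a CTCF region, among them Cacna1s with 5, which 3.26% of genes of its length class equalled or passed.

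CTCF and Rad21 followed another order of genes. Cacna1a had 12 CTCF regions (12 and 17 peaks in the 2 libraries), a number that 0.78% of genes of 200 to 400 kb reached, and 5 Rad21 regions (5 and 13 peaks). Kcnma1 had 9 CTCF and 6 Rad21 regions, and its highest peak stood at percentile 99.5 and 98.8 in the CTCF lists and at 99.8 and 97.1 in the Rad21 lists. Hcn2, only 19.5 kb long, had 4 CTCF regions. Kcnh7, 491 kb long, had no peak in any CTCF or Rad21 list, while 84.4% of genes above 400 kb had a CTCF region. In all, 17 of the 36 genes had regions of all 3 proteins, where 19.1% of all protein-coding genes did and 14.9 would be reached at the shares of their length classes.

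Within the genes, Ldb1 and CTCF lay mostly at different sites. Of the 127 Ldb1 regions, 2 overlapped a CTCF region (1.57%, against 4.52% of all control Ldb1 regions) and 3 a Rad21 region (2.36%, against 3.82%). The 2 CTCF overlaps were in Cacna1b and Cacna1e, and the Rad21 overlaps in Cacna1b, Cacna1h and Kcnma1. By single list, CTCF peaks lay at 2 and 7 of the 127 regions, where 4.76% and 9.22% of all control Ldb1 regions had one. The Rad21 lists had a peak at 3 and 25 of them, against 4.32% and 23.3% of all. These differences from all regions rest on few overlaps and were not tested.

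Most Ldb1 regions of channel genes lay inside the gene and away from its start, as does most of the length of these windows. Of the 127, 125 touched the body of their gene. Per 100 kb there were 1.42 regions in the bodies without flanks, against 1.33 in the windows. A start site on a known strand was at hand for 28 of the 36 genes, which held 105 of the regions. Of these, 91 lay more than 10 kb past the nearest annotated start. Neither number was set beside the share over all control Ldb1 regions, so they show no trait particular to channel genes. In 3 genes a region was centred within 1 kb of a start: Kcna5, Cacna1b and Cacna1d. The annotation used gives neither exons nor introns, so these were not told apart.

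Promoter sequences are shown for 2 of these genes, Kcna5 and Cacna1b, and for Scn8a. Ldb1 peaks lay on the start site at Kcna5 and just upstream of it at Cacna1b. At Scn8a, CTCF and Rad21 peaks lay on the start site. Each runs 5′ to 3′ on the strand of the gene, from 250 bases before the start to 50 bases after it (RefSeq, GRCm38.p6, which is mm10). Capitals mark the bases covered by every one of the peaks named. For Kcna5 (chr6:126535506-126535805, minus strand) these are the peaks of all 3 control Ldb1 libraries, for Cacna1b (chr2:24763103-24763402, minus strand) those of the first 2 control Ldb1 libraries, and for Scn8a (chr15:100870395-100870694, plus strand) those of the second CTCF and both Rad21 libraries.
Kcna5: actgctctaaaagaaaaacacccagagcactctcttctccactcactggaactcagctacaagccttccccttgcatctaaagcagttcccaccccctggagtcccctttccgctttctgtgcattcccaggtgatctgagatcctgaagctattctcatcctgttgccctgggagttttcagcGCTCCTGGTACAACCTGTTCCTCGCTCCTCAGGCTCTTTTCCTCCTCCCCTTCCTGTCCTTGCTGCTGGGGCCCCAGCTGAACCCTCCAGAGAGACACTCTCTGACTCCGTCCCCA
Cacna1b: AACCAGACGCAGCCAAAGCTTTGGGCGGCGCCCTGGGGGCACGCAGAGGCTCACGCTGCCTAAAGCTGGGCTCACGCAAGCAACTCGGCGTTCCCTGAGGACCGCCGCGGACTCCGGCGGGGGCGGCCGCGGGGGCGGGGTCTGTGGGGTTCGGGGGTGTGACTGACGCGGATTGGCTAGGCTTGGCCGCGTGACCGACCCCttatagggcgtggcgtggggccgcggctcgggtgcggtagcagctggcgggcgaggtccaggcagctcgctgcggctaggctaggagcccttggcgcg
Scn8a: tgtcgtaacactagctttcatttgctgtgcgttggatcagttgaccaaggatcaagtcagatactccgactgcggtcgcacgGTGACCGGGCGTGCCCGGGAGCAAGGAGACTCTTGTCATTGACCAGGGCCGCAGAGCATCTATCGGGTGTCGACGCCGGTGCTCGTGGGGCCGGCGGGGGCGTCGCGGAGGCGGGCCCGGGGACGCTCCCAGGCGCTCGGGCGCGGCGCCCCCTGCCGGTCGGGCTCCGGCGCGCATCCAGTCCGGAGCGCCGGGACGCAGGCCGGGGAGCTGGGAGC

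At Kcna5 the 3 Ldb1 peaks shared 116 bases of this stretch, at the start site itself. The Kcna5 peak stood at percentile 47.8, 56.3 and 29.7 in the control Ldb1 lists and at 95.9 in the first Lhx2 KO list, and the second Rad21 (74.3) and second CTCF (5.7) lists had a peak there too. At Cacna1b the promoter peak was weak in the control lists (percentiles 3.3 and 23.5, none in the other) and at 32.3 in the first Lhx2 KO list. The second Rad21 (59.2) and second CTCF (9.3) lists had a peak there too. The region at the start of Cacna1d likewise had a peak in the first Lhx2 KO, second Rad21 and second CTCF lists. Short motifs were searched on both strands in all 32851 promoters of this length: TAATTA, a core bound by LIM-homeodomain factors, the core of the CTCF motif, and the palindrome bound by Ebf factors. TAATTA was in 5.29% of all promoters and in 0 of the 36 promoters at hand for 28 channel genes, and the Ebf palindrome in 0.904% and 0. The CTCF core was in 8.61% of all promoters and in 3 of the 36, those of Cacna1s, Kcnh2 and Scn8a. In Scn8a the match, GCCCCCTGCCGG on the printed strand, covers letters 230 to 241 and lies inside the stretch in capitals, where the second CTCF list had a peak at percentile 91.4 and the first had none. The promoters with the other matches, in Cacna1s and Kcnh2, had no peak of any list.

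Ldb1 in neurons without Lhx2 was compared with control neurons by the number of channel genes with a peak. Full lists differ in length at unknown depth, and lists cut to equal length lose any difference in the total number of peaks. Neither count therefore measures how far Ldb1 binding at these genes depends on Lhx2. In the full lists 29, 33 and 24 channel genes had a control Ldb1 peak, and 13 and 2 an Lhx2 KO peak, where 43.5%, 47.4%, 29.1%, 15.2% and 2.12% of all protein-coding genes had one. The groups did not overlap, with a difference of 21.2 genes (exact permutation p = 0.1, two-sided, the smallest that 10 assignments allow), but the lists differ in length. With each list reduced to its 542 highest-scoring peaks, 2, 4 and 3 channel genes had a control peak and 3 and 2 an Lhx2 KO peak, where 1.69%, 1.70%, 1.67%, 1.98% and 2.12% of all genes had one. These groups overlapped, 3 ± 1 (SD, n = 3) against 2.5 ± 0.71 (SD, n = 2), with a difference of 0.5 genes (exact permutation p = 0.7). At 4290 peaks per list, 14, 16 and 14 genes had a control peak and 13 a peak of the first Lhx2 KO library (exact permutation p = 0.5), while 10.4%, 10.4%, 10.3% and 15.2% of all genes did. At 4290 peaks the smallest p that 1 library against 3 allows is 0.25. At equal list length the groups were therefore not told apart by the number of channel genes reached. Equal length does not make the lists reach equally many genes. At 4290 peaks the first Lhx2 KO list reached more of all genes than the control lists but no more channel genes, a contrast that was not tested.

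The genes reached were only partly the same. Among 542 peaks, Kcnh1 and Scn9a were in all 3 control lists, Cacna1h in 2 of them, and Cacna1e in 1. The Lhx2 KO lists had Cacna1h, Hcn2 and Kcna5 in the first library and Cacna1h and Kcnh1 in the second. Scn9a, first among the channel genes in each control list, had no peak of the second Lhx2 KO library and 1 of the first, at percentile 11.8 and outside every control region. Among 4290 peaks, Hcn2, Kcna5 and Kcnd3 were in the first Lhx2 KO list and in none of the 3 control lists, whereas Cacna1g, Kcnh1, Kcnq1 and Scn8a were in all 3 control lists and not in that one. These names were read off after the values were seen, and no test was made of single genes.

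Cacna1h was the only channel gene with a peak in both Lhx2 KO libraries (1.53% of all genes had a region shared by both). Both KO peaks lay in its strongest control region, with deposited scores of 19 and 19 and percentiles of 90.5 and 89.4 in their lists. Hcn2, which encodes a pacemaker channel opened by hyperpolarisation, had its control region at percentile 61.2 (chr10:79719178-79719557, 2.7 kb past the start), with 1 peak in each control list at 64.2, 69.1 and 50.3. The first Lhx2 KO list had a peak there at percentile 98.0, and the second had none. Kcnh1 showed the reverse, with a peak in the second Lhx2 KO list and none in the first, longer one. Such sites, present in 1 of the 2 KO libraries, show the spread between these libraries.

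By region, 14 of the 127 control Ldb1 regions at channel genes had a peak in the first Lhx2 KO library (11.02%, against 12.7% of all control regions) and 2 in the second (1.57%, against 2.17%). Of the 15 regions among the strongest 10%, 5 and 2 had one, against 35.98% and 14.7% of all regions of that strength. In the other direction, 14 of the 18 peaks of the first KO library at channel genes lay in a control Ldb1 region, against 67.4% of all its peaks, and 2 of 2 of the second library, against 91.1%. The 4 others, all of the first KO library, lay in Cacna1d, Kcnc1, Kcnd3 and Scn9a. The second Rad21 list had a peak at 11 of the 18 peaks of the first KO library, against 50.1% of all peaks of that library.

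**Figure D4:**
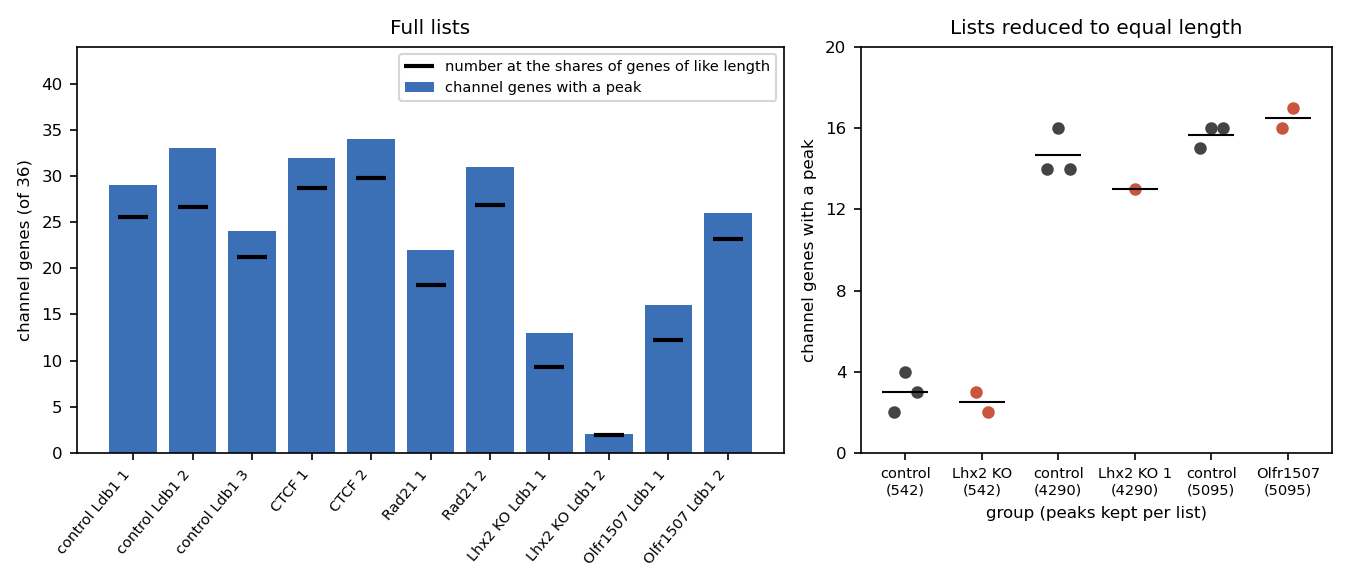
Left, number of channel genes (of 36) with a peak in each full list, with a black dash for the number at the shares of genes of like length in that list. Right, the same number in single libraries (dots, line for the mean) after each list was reduced to its 542, 4290 or 5095 highest-scoring peaks; control and Lhx2 KO libraries overlap at 542 peaks.

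In Olfr1507+ cells the channel genes looked much as in the whole population. Regions of both Olfr1507 libraries were at 16 of the 36 genes, where 11.6% of all genes had one and 12.2 would be reached at the shares of their length classes. In the full lists 16 and 26 genes had a peak (11.6% and 36.4% of all genes). With each list reduced to 5095 peaks, 15, 16 and 16 channel genes had a control peak and 16 and 17 an Olfr1507 peak, where 11.8%, 11.9%, 11.9%, 11.6% and 11.6% of all genes had one. The difference, 15.7 ± 0.58 (SD, n = 3) against 16.5 ± 0.71 (SD, n = 2), was -0.83 genes and within the spread between libraries (exact permutation p = 0.6, two-sided). By region, 29 and 97 of the 127 control Ldb1 regions had a peak in the Olfr1507 libraries (21.8% and 73.5% of all control regions). Both libraries had one at 14 of the 15 strong regions (95.8% of all strong regions), the exception being a region of Kcnma1 (chr14:23351461-23351798) with a peak in the second library alone.

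The lists named at 5095 peaks were also close. Cacna1b, Cacna1d, Cacna1e, Cacna1g, Cacna1h, Cacna2d1, Kcna2, Kcnh1, Kcnma1, Kcnq1, Kcnq5, Scn1a, Scn3a, Scn8a and Scn9a were in all 5 lists. Cacna1a was in both Olfr1507 lists and no control list, though its peak in the first stood only at percentile 13.1. The comparisons with Lhx2 KO and with Olfr1507 share their 3 control libraries.

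The channel genes were also divided by where they are best known to act, into 22 neuronal genes, 6 genes of muscle and heart (Scn4a, Cacna1s, Cacna1c, Kcna5, Kcnq1 and Kcnh2) and 8 known in both. An Ldb1 region was at 18 of 22 neuronal genes (15.4 at the shares of their length classes), at 3 of 6 muscle and heart genes (3.6) and at 8 of 8 genes known in both (5.7). Per 100 kb these were 0.988, 0.750 and 2.34 regions. Of the 9 muscle and heart regions, 4 lay at Cacna1c and 4 at Kcnq1, the longest genes of that group (610 and 320 kb). The difference of 0.24 between neuronal and muscle and heart genes was not shared by every library. By single library, neuronal genes had 1.11, 1.27 and 0.653 peaks per 100 kb. Muscle and heart genes had 0.833, 1.33 and 0.417, so the second library had the opposite order. Over the 3 libraries this difference in peaks had an SD of 0.186. The difference in regions turned to -0.86 when the genes known in both were counted with muscle and heart. For CTCF the muscle and heart genes had 1.499 regions per 100 kb and the neuronal genes 1.02, and for Rad21 0.333 and 0.370.

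Single genes of the muscle and heart group ranged from none to strong. Kcnq1, which carries the slow repolarising current of the heart, had 4, 5 and 3 control peaks and a region at percentile 90.6 near its end (chr7:143388858-143389231) with a peak in both Olfr1507 libraries. Cacna1c, the L-type gene of heart and smooth muscle that neurons also use, had 5, 6 and 1 peaks and no region above percentile 71.8. Kcna5, a gene of the ultrarapid current of the atrium, had 1, 2 and 1 peaks and the promoter region described above. Kcnh2, the gene of the rapid repolarising current, had 0, 2 and 0 peaks. The skeletal muscle genes Scn4a and Cacna1s had 0, 1 and 0 and no peaks, and both had CTCF regions (2 and 5).

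The other subunits of these channels were looked at through 54 genes, of which 30 had a control Ldb1 region, against 24.0 at the shares of their length classes. A CTCF region was at 44 of the 54 (32.0 at those shares) and a Rad21 region at 20 (18.7). Calcium channel beta subunits (4 of 4) and potassium channel beta subunits (3 of 3) all had an Ldb1 region, where 2.24 and 1.69 would be reached at the shares of their length classes. It was present at 5 of 6 partners of the Kv4 channels (4.27 at those shares) and at 7 of 12 other potassium channel alpha subunits (4.77). Calcium channel gamma subunits had one at 2 of 8 genes and the KCNE subunits at 0 of 4 (3.71 and 1.14). The strongest region of these 54 genes lay at Scn4b, a sodium channel beta subunit, at percentile 99.4 with a peak in both Olfr1507 and neither Lhx2 KO library, as at Scn9a. It was followed by Kcnmb2, a beta subunit of the large-conductance channel of Kcnma1, at 98.7, Kcnh4 at 97.8 and Kcnc4 at 96.9.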

How the data were processed

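The 11 ChIP libraries of the series with a peak list were used, and the inputs and RNA samples were not analysed here. Among the tools in the submitters' processing notes are HOMER 4.7, Bowtie2 2.3.2 and cutadapt 1.9.1, and the genome build named there is mm10. How peaks were called and filtered was not stated there. Each list belongs to 1 library. The deposited score of a peak is the authors' whole number without a stated scale, and here it served to order the peaks of 1 list.

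Only peaks of chromosomes 1 to 19, X and Y were used, linked into regions where they overlapped by at least 1 base. Genes were placed by RefSeq annotation of GRCm38.p6, without 340 genes listed with scaffold coordinates. Percentiles give tied scores their mean rank. Length classes had limits of 30, 100, 200 and 400 kb. Numbers of genes were compared between groups of libraries by exact permutation of library labels. Counting was tested on simulated peaks, where 200 of 200 planted genes were recovered. Python 3.11.15, numpy 2.4.6, pandas 2.3.3, scipy 1.17.1 and matplotlib 3.10.9 were used. Genes described in full were the 8 with the strongest control Ldb1 region, those with a peak in both Lhx2 KO libraries, the muscle and heart genes and those without a region; others were added after their values were seen. The genes, classes and lists were chosen with earlier results of these data known. Alternatives covered the flank, the overlap, the score, the libraries needed and leaving out each library.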

Additional observations from a re-analysis of the deposited data

How the results depend on the processing

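Of 48 alternative values, 3 reversed their direction. The counts of channel genes with a region stayed within 1.5 times their value. In the gene bodies without flanks, they were 29 for Ldb1, 31 for CTCF and 16 for Rad21. With 1 library left out, they were 24 to 29 for Ldb1, 32 to 34 for CTCF and 22 to 31 for Rad21. For CTCF and Rad21 that leaves a single list, so those counts cannot fall. With the 50% of each list that scored higher, Ldb1, CTCF and Rad21 regions were at 22, 28 and 14 genes, and with flanks of 50 kb at 34, 34 and 26. Counts with other flanks or with part of each list were not set beside the share of all genes at the same setting. They therefore do not show how channel genes stand to genes of like length there. Ldb1 regions per 100 kb were 1.33 with all libraries, 0.914 to 1.32 when 1 control library was left out, and 0.788 with the 50% of each list that scored higher. Neuronal minus muscle and heart genes gave 0.24 regions per 100 kb, 0.201 to 0.22 when 1 control library was left out, -0.857 with the genes known in both counted as muscle and heart, and 0.669 with them counted as neuronal. For control minus Olfr1507 the difference was -0.833 genes, 7.67 with full lists of unequal length, and -1 to 1.33 when 1 library was left out, with the positive value without the first Olfr1507 library. Control minus Lhx2 KO was 0.5 genes at equal list length, 21.2 with full lists (exact permutation p = 0.1, the smallest possible), and from 0 (without the second control library) to 1.67 (without the second Lhx2 KO library) when 1 library was left out. With a replicate block (differences within replicate numbers 1 and 2, exact permutation of signs) the differences were 0.5 genes for Lhx2 KO (p = 1) and -1 for Olfr1507 (p = 0.5), where no p below 0.5 is possible. No pairing by number was visible: across 11535 genes the deviations of same-numbered libraries correlated at 0.026 and -0.034. Peak counts from lists of such unequal length cannot show whether same-numbered libraries were prepared together. With unknown depth, an absent peak does not show absent binding.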
